A study of Bos taurus with 9 samples.

Results

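RNA polymerase II (RNA pol II) was profiled in rumen tissue of Holstein cattle (the breed is spelled Hostein in the labels) by chromatin immunoprecipitation followed by sequencing (ChIP-seq), with 1 library of untreated tissue (control) and 1 library of tissue after 24 h of butyrate. The rumen is the large fermentation chamber of the cattle stomach, and the methods of the study describe butyrate infusion and rumen biopsies. No genotype, age or number of animals was used here, and both groups share a mouse monoclonal antibody of one lot, sequencing lane 3 and the input library (chromatin without immunoprecipitation) against which peaks were called. The peaks considered here are all those on chromosomes 1 to 29, the autosomes, which makes 673 control and 1242 butyrate peaks, or 1915 of the 86291 peaks in the 8 lists of the series. Every group held 1 library, so no test between conditions was possible, and every 95% interval given covers counting error only, not the spread between animals, biopsies or immunoprecipitations. In tissue, a change within cells and a change in the mix of cells cannot be told apart.

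RNA pol II transcribes protein-coding genes and many non-coding RNAs. It gathers at promoters and also at active enhancers, where neighbouring histones carry acetylated lysines such as acetylated lysine 27 and lysine 9 of histone H3 (H3K27ac and H3K9ac), whereas trimethylated lysine 9 of histone H3 (H3K9me3) marks silenced chromatin, often over repeats. Butyrate, a fermentation product taken up by the rumen wall, is an inhibitor of histone deacetylases, which strip acetyl groups off histones. The comparison asks where along the autosomes RNA pol II was called before and after butyrate. Whether a peak lies in a gene, and the sequence under it, was not analysed here, because no gene positions or genome of the assembly used, UMD3.1, were at hand. The tissue label was not checked against marker genes for the same reason.

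The butyrate list held 569 more autosomal RNA pol II peaks than the control list, a ratio of 1.85 (log2 ratio 0.88, 95% interval 0.75 to 1.02). The base pairs under peaks were 166 kb in control and 298 kb after butyrate. The number was higher after butyrate on each of the 29 autosomes. On 18 of them the counting interval of the ratio lay above equal numbers. Over the 4 antibodies of the series, 70 of 116 pairs of antibody and chromosome (60.3%) had the higher number after butyrate. This share includes the 29 pairs of RNA pol II itself. For H3K27ac the number was lower on all 29 autosomes (36963 control and 32763 butyrate peaks), for H3K9ac it was higher on 20 and lower on 8, and for H3K9me3 it was higher on 21 and lower on 8. For these marks the conditions were on different lanes, so lane and condition cannot be told apart.

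The increase in peaks came with little reuse of the control positions. Of the butyrate peaks 103, or 8.29% (6.88 to 9.96), overlapped a control peak by at least 1 bp, and 1139 did not. These 1139 are called butyrate only below. Of the control peaks 103, or 15.3% (12.8 to 18.2), overlapped a butyrate peak, and 570 were control only. When peaks of both lists were joined into 1811 regions, 62.9% (60.6 to 65.1) were called after butyrate only and 31.5% (29.4 to 33.7) in control only, where over the merged regions of the 4 antibodies 27.3% were called after butyrate only and 33.2% in control only. The RNA pol II lists thus differed by peaks called after butyrate only and by peaks called in control only, with more of the former. H3K27ac supplied 46287 of the 57970 regions of the 4 antibodies. Called in both conditions were 5.63% of RNA pol II, 12.02% of H3K9me3, 18.8% of H3K9ac and 45.65% of H3K27ac regions. A low share called in both was thus not confined to RNA pol II, whose share was the lowest of the 4. The part of list length in these shares was not tested. Without replicates, gain or loss of RNA pol II at a position cannot be told apart from a call near the calling threshold. A single pair of intervals was identical in both lists.

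Peaks present in one condition were narrow. The median width of butyrate only peaks was 211 bp and that of control only peaks 215.5 bp, where the minimum in these lists was 200 bp. At that minimum lay 461 butyrate only peaks, 40.5% (37.7 to 43.4), and 208 control only peaks, 36.5% (32.6 to 40.5). Shared peaks were wider, with a median of 300 bp in the butyrate list and 266 bp in the control list, and 15.5% (9.79 to 23.8) and 7.77% (3.99 to 14.6) of them at the minimum. Among 100 pairs that matched one to one, the butyrate peak was wider in 56, narrower in 41 and equal in 3, and the centres lay a median of 41.5 bp apart.

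The butyrate only peaks were spread over all autosomes, from 0.199 per Mb on chromosome 9 to 0.762 on chromosome 23. The ratio of butyrate to control peaks had a median of 1.86 over the 29 chromosomes. It was highest on chromosome 26, with 5 control and 19 butyrate peaks (ratio 3.80), chromosome 28, with 7 and 23 (ratio 3.29), and chromosome 25, with 8 and 26 (ratio 3.25). It was lowest on chromosome 19, with 38 and 40 (ratio 1.05), chromosome 9, with 23 and 26 (ratio 1.13), and chromosome 27, with 9 and 11 (ratio 1.22). The high ratios rest on small control counts, and for 28 of the 29 chromosomes the counting interval of the log2 ratio held the value of all autosomes. The exception was chromosome 19, where the interval ran from -0.60 to 0.75.

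Chromosome 19 had the most control RNA pol II peaks per Mb, 0.593, and the most control H3K27ac peaks per Mb, 36.2. After butyrate it had 0.625 RNA pol II peaks per Mb, and chromosome 23 had the most, 0.820 against 0.362 in control. Totals that differed by 2 peaks on chromosome 19 came from mostly different positions, since 33 of its 38 control peaks were control only and 35 of its 40 butyrate peaks were butyrate only. On chromosome 2 none of 34 control and 48 butyrate peaks overlapped, and on chromosome 26 none of 5 and 19.

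In absolute number the gain was largest on chromosome 3, from 43 to 94 peaks, chromosome 11, from 26 to 72, and chromosome 10, from 23 to 67. The 5 chromosomes with the largest differences held 36.4% of the whole difference on 21.1% of the autosomal span. Over the 29 chromosomes, butyrate only peaks per Mb went with control H3K27ac peaks per Mb (Pearson r = 0.62, Spearman rho = 0.70), whereas the log2 ratio did so weakly (r = 0.10, rho = 0.28). The chromosomes share the same libraries and input, and the correlations are descriptions only.

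**Figure D1:**
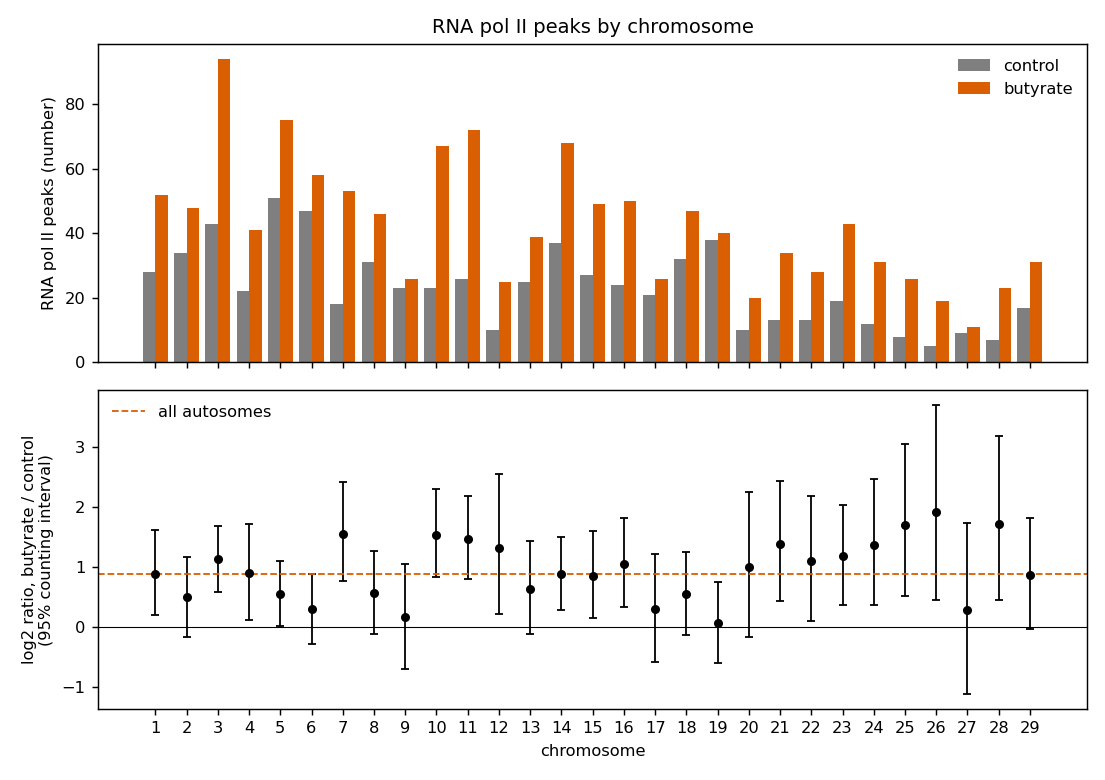
RNA pol II peaks on each autosome in control and after butyrate (upper, number of peaks, 1 library per bar) and the log2 ratio of butyrate to control with its 95% counting interval (lower; dashed line, all autosomes, 0.88). Every chromosome had more peaks after butyrate, from 2 more on chromosome 19 to 51 more on chromosome 3. On 18 chromosomes the counting interval lay above equal numbers.

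At a finer scale, 518 consecutive windows of 5 Mb were counted from the first base of each chromosome. Butyrate peaks outnumbered control peaks in 285 windows (55.0%), control peaks outnumbered butyrate peaks in 81 (15.6%), the numbers were equal in 69, and 83 had no RNA pol II peak. Windows with a control peak numbered 308 and windows with a butyrate peak 400. The butyrate list reached 127 windows that had no control peak, with 274 peaks there, and 35 windows had control peaks only, with 42 peaks. Butyrate only peaks were sparse, and 283 windows held 1 to 3 of them, 12 held 10 or more, and the 51 fullest windows held 34.5% of them. The 51 windows fullest in control only peaks held 43.5% of those. Because there were fewer control only peaks, they could reach fewer windows, and these shares are not of one scale.

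The window with the largest excess of butyrate peaks, on chromosome 15 from 25000001 to 30000000, had 2 control and 13 butyrate peaks. On chromosome 14, the window from 10000001 to 15000000 had 5 and 15, and that from 1 to 5000000 had 9 and 18. Next came 6 windows tied at an excess of 8 peaks. Of these, 3 lay on chromosome 3, with 3 and 11 peaks from 10000001 to 15000000, 11 and 19 from 15000001 to 20000000, and 0 and 8 from 85000001 to 90000000. The others lay on chromosome 5, 25000001 to 30000000, with 5 and 13, chromosome 11, 70000001 to 75000000, with 2 and 10, and chromosome 14, 15000001 to 20000000, with 3 and 11. Control H3K27ac peaks in these 9 windows ran from 59, in the chromosome 14 window with 15 butyrate peaks, to 331, in the chromosome 3 window with 19.

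Windows with an excess of control peaks were fewer, and their excess was smaller. On chromosome 6 the window from 5000001 to 10000000 had 36 control and 28 butyrate peaks, and on chromosome 8 that from 70000001 to 75000000 had 11 and 3. Next came chromosome 1, 95000001 to 100000000, with 5 and 1, and on chromosome 19 the windows 10000001 to 15000000, with 4 and 1, and 35000001 to 40000000, with 6 and 3. The window on chromosome 6 was the fullest in both conditions and had 79 control H3K9me3 peaks against 25 of H3K27ac.

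**Figure D2:**
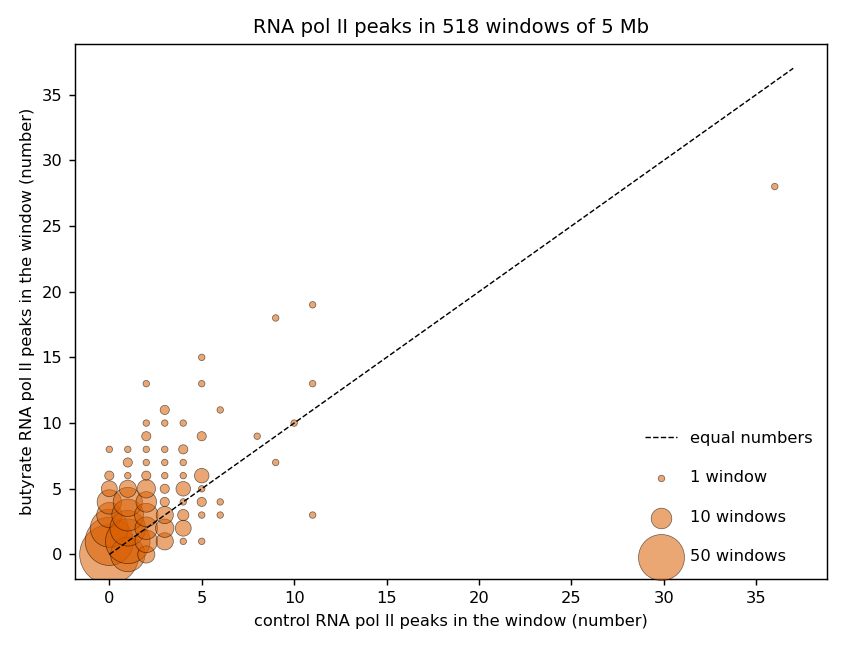
RNA pol II peaks in 518 windows of 5 Mb on the autosomes, control number on the horizontal and butyrate number on the vertical axis; the size of a point gives the number of windows at that place and the dashed line equal numbers. Most windows lie near the origin, 285 above the line and 81 below it, and the window at 36 control and 28 butyrate peaks is that on chromosome 6.

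Full windows were also ordered by their number of control H3K27ac peaks and divided into 5 groups of about equal size. In the group with the most H3K27ac (113 to 397 peaks a window) lay 448 butyrate only peaks, 40.6% (37.8 to 43.5), and 39.1% (35.1 to 43.2) of the control only peaks. In the group with the fewest (0 to 20) lay 61 butyrate only peaks, 5.53% (4.33 to 7.04), and 6.31% (4.57 to 8.64) of the control only peaks. The ratio of butyrate to control peaks was 1.60, 1.44, 2.14, 1.90 and 1.89 from the poorest to the richest group, and the log2 intervals of all groups overlapped. The shares of butyrate only and control only peaks had overlapping intervals in each of the 5 groups.

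As background, cattle autosomes are acrocentric, with the centromere at one end. Each chromosome was divided into 10 segments of equal length, with segment 1 at the first base. Butyrate only peaks were close to evenly spread, from 8.52% (7.03 to 10.3) in segment 5 to 12.2% (10.4 to 14.2) in segment 2. Shared peaks were not: 25 of 103 butyrate shared peaks, 24.3% (17.0 to 33.4), lay in segment 1, against 9.92% (8.32 to 11.8) of the butyrate only and 13.9% (11.3 to 16.9) of the control only peaks. Of these 25, 11 lay on chromosome 6. Outside the clusters described below, 14.8% (7.96 to 25.7) of 61 shared butyrate peaks lay in segment 1, against 7.77% (6.28 to 9.58) of the 1017 butyrate only peaks outside clusters. The share of H3K27ac peaks went from 7.29% in segment 1 to 15.5% in segment 10, where 9.92% of butyrate only and 11.2% of control only RNA pol II peaks lay. In the last 1 Mb of the chromosomes, 1.16% of the span, lay 24 butyrate only peaks (2.11%, 1.42 to 3.12) and 8 control only peaks (1.40%, 0.713 to 2.74). In the first 1 Mb the order was the reverse, with 22 butyrate only (1.93%, 1.28 to 2.91) and 19 control only peaks (3.33%, 2.14 to 5.15). At each end the intervals overlapped, and intervals of the differences were not computed.

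**Figure D3:**
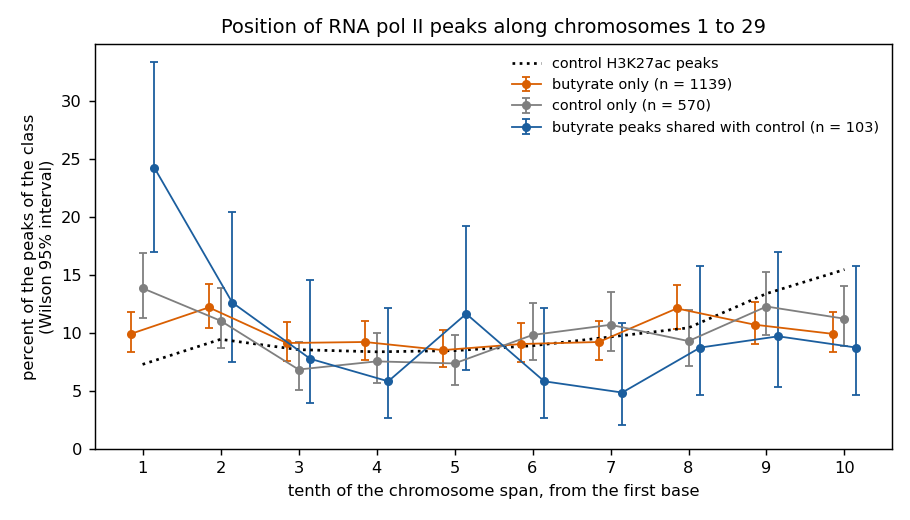
Share of each class of RNA pol II peaks in each of 10 equal segments of the chromosome span, with Wilson 95% intervals; the dotted line gives control H3K27ac peaks. Shared peaks stand out in segment 1 with 24.3%, while butyrate only peaks stay between 8.52% and 12.2%.

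Most butyrate only peaks lay more than 100 kb from any control RNA pol II peak. The median distance of butyrate only peaks to the nearest control peak was 699 kb. Of them 25 (2.19%) lay within 1 kb, 82 (7.20%) within 10 kb and 238 (20.9%, 18.6 to 23.4) within 100 kb, while 489 butyrate peaks had no control peak within 1 Mb. Control only peaks lay a median of 299 kb from the nearest butyrate peak, 22 of them within 1 kb and 180 (31.6%, 27.9 to 35.5) within 100 kb. These distances are not of one scale, because the list searched was the longer one for control peaks. Distances for randomly placed peaks were not computed, so nearness or remoteness beyond random placement was not tested. Counting peaks at most 1 kb apart as found in both conditions raised the share of butyrate peaks found in control to 10.3% and that of control peaks found after butyrate to 18.6%.

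Control only and butyrate only peaks carried acetylation in near equal shares, and shared peaks carried each mark more often. Under butyrate only peaks an H3K27ac peak of the butyrate library was present in 30.3% (27.7 to 33.0), and under control only peaks an H3K27ac peak of the control library in 30.2% (26.6 to 34.1), a difference of 0.11 percentage points with an interval from -4.56 to 4.65. For H3K9ac the shares were 9.75% (8.16 to 11.6) and 9.65% (7.49 to 12.4), with an interval of the difference from -3.04 to 2.95. H3K9me3 lay under 7.11% (5.76 to 8.75) of butyrate only and 10.7% (8.42 to 13.5) of control only peaks, a difference of -3.59 points with an interval from -6.71 to -0.78. Each class was scored against the H3K9me3 list of its own condition. Against the butyrate list, control only peaks had 7.72%, close to the 7.11% of butyrate only peaks. Against the control list, butyrate only peaks had 6.497% and control only peaks 10.7%. Intervals of these differences were not computed. With H3K9me3 peaks of either condition the shares were 9.66% and 12.98% (interval of the difference -6.72 to -0.202). Both shares also depended on which peaks were kept. With X included they were 11.96% and 15.5% (interval of the difference -6.87 to -0.40), and among peaks of at least the median width of their list 11.9% and 15.1% (interval -8.40 to 1.58, which holds 0). Among peaks wider than 200 bp they were 10.7% and 13.3%, and the interval also held 0 (-7.01 to 1.32). None of the 3 marks lay under 62.8% (59.9 to 65.5) of butyrate only and 59.3% (55.2 to 63.3) of control only peaks.

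Of the 103 shared butyrate peaks, H3K27ac lay under 52.4% (42.9 to 61.8), H3K9ac under 37.9% (29.1 to 47.5) and H3K9me3 under 51.5% (41.9 to 60.9), and 16.5% (10.6 to 24.9) had no mark. Acetylation and H3K9me3 lay together under 35.0% (26.4 to 44.6) of them, against 0.966% (0.540 to 1.72) of butyrate only peaks. The same positions gave 45.6% (36.3 to 55.2) for H3K9me3 and 63.1% (53.5 to 71.8) for H3K27ac in control. All of these lists share the input library, and its part in the coincidence of peaks was not tested. The intervals of the shared and the butyrate only peaks did not overlap for any of the 3 marks. Shared peaks were also the wider ones, and the part of width in this difference was not tested.

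**Figure D4:**
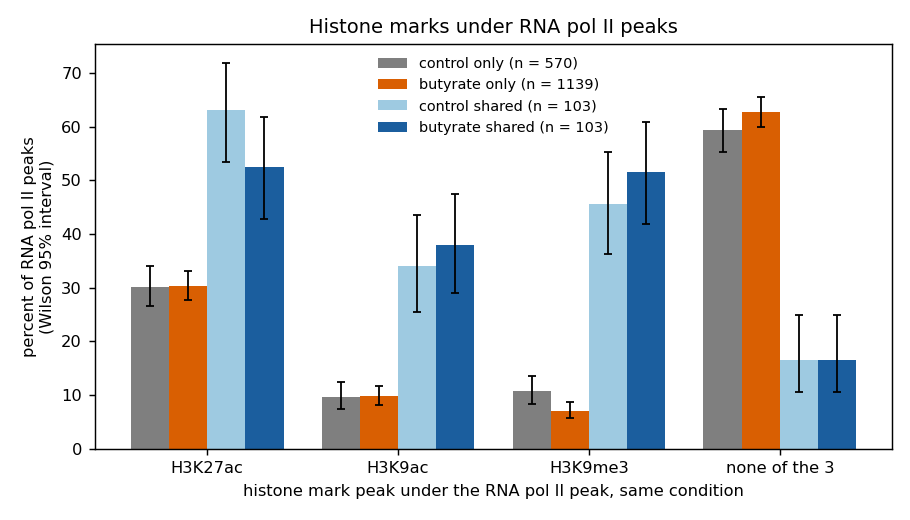
Share of RNA pol II peaks with an H3K27ac, H3K9ac or H3K9me3 peak of the same condition under them, or with none of these, for control only, butyrate only and shared peaks, with Wilson 95% intervals. Control only and butyrate only peaks stand at 30.2% and 30.3% for H3K27ac and at 10.7% and 7.11% for H3K9me3, while shared peaks have more of each mark and 16.5% without any.

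At most butyrate only positions with H3K27ac, the H3K27ac had also been called in control. Of the 345 butyrate only peaks over a butyrate H3K27ac peak, 298 (86.4%, 82.4 to 89.6) also lay over a control H3K27ac peak, and 47 over a butyrate H3K27ac peak alone. A further 43 lay over a control H3K27ac peak alone. The mirror image was seen in control only peaks, where 150 of the 172 over a control H3K27ac peak (87.2%, 81.4 to 91.4) also lay over a butyrate one. For H3K9ac the shares were lower, 54 of 111 (48.6%, 39.6 to 57.8) for butyrate only and 29 of 55 (52.7%, 39.8 to 65.3) for control only peaks, in lists that were shorter. For H3K9me3, 45 of the 81 butyrate only peaks over a butyrate peak also lay over a control one (55.6%, 44.7 to 65.9). Over all H3K27ac regions joined from both lists, 21130 were called in both conditions, 10411 after butyrate only and 14746 in control only. For H3K9ac these numbers were 1314, 2926 and 2744, and for H3K9me3 347, 1361 and 1180. The part of peak width in these shares was not tested. No mark was called in either condition at 653 butyrate only and 311 control only positions.

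The H3K27ac peaks that carried RNA pol II were few and wide. After butyrate 403 of 32763 H3K27ac peaks (1.23%, 1.12 to 1.36) had an RNA pol II peak over them, and in control 239 of 36963 (0.647%, 0.570 to 0.734). Their median width was 470 bp after butyrate and 427 bp in control, against 301 and 293 bp for H3K27ac peaks without RNA pol II. The H3K27ac peaks under butyrate only RNA pol II peaks had a median width of 475.5 bp. For H3K9ac 3.55% (3.03 to 4.15) and 2.21% (1.80 to 2.71) of peaks carried RNA pol II after butyrate and in control, and for H3K9me3 7.72% (6.55 to 9.08) and 7.23% (6.04 to 8.63). The width of a peak also sets its chance of an overlap, and this was not corrected for. The 794 butyrate only peaks outside H3K27ac lay a median of 21.8 kb from the nearest H3K27ac peak, 66 of them within 1 kb and 270 within 10 kb. Of all butyrate only peaks 14.3% (12.4 to 16.5) had no H3K27ac peak within 100 kb, and of control only peaks 13.2% (10.6 to 16.2).

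When peaks of both lists were chained at gaps of at most 100 kb, 38 clusters of 4 or more peaks formed on 19 chromosomes. They made up 0.193% of the span and held 119 control peaks (17.7%, 14.99 to 20.7) and 164 butyrate peaks (13.2%, 11.4 to 15.2). In clusters lay 40.8% (31.8 to 50.4) of shared butyrate peaks, 10.7% (9.05 to 12.6) of butyrate only and 13.7% (11.1 to 16.7) of control only peaks. The definition partly sets this order, because a shared peak always enters with its overlapping partner and can never be single. Within the butyrate list alone, 53.4% (43.8 to 62.7) of shared and 27.2% (24.7 to 29.9) of butyrate only peaks had another peak within 100 kb. Within the control list, the values were 39.8% (30.9 to 49.5) of shared and 20.7% (17.6 to 24.2) of control only peaks. The ratio of butyrate to control peaks was 1.38 in clusters (log2 0.46, interval 0.11 to 0.82) and 1.95 outside them (log2 0.96, 0.81 to 1.11). The largest cluster, on chromosome 6, held 28 of the 119 control and 16 of the 164 butyrate peaks in clusters. The ratio without it was not computed. Butyrate peaks were more numerous in 21 clusters, control peaks in 7, and 10 had equal numbers. Single peaks, with no other RNA pol II peak of either list within 100 kb, made up 59.3% (56.6 to 62.0) of the butyrate and 50.8% (47.0 to 54.6) of the control list.

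The largest cluster lay on chromosome 6 from 6006636 to 6593605, with 28 control and 16 butyrate peaks over 587 kb. It contained 36 control and 25 butyrate H3K9me3 peaks and 6 control and 3 butyrate H3K27ac peaks. The second lay on chromosome 14 from 14570726 to 15166549, with 5 control and 19 butyrate peaks, and contained 13 and 32 H3K9me3 peaks. The third lay on chromosome 14 from 714064 to 920457, with 4 and 12 RNA pol II peaks and 13 H3K9me3 peaks in each condition. H3K9me3 peaks of either condition lay in 22 of the 38 clusters and acetylation peaks in 35, and 20 clusters had both. Among the 22, the condition with more RNA pol II peaks was also the one with more H3K9me3 peaks in 8, the other condition had more H3K9me3 peaks in 7, and either number was equal in 7.

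Within clusters H3K9me3 lay under 25.4% (18.5 to 33.8) of butyrate only peaks, and outside them under 4.92% (3.75 to 6.42). The respective values for control only peaks were 28.2% (19.4 to 39.0) and 7.93% (5.85 to 10.7). H3K27ac did not show such a step, with 28.7% (21.4 to 37.3) of butyrate only peaks inside and 30.5% (27.7 to 33.4) outside clusters. Shared butyrate peaks had H3K9me3 under 45.9% (34.0 to 58.3) also outside clusters.

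**Figure D5:**
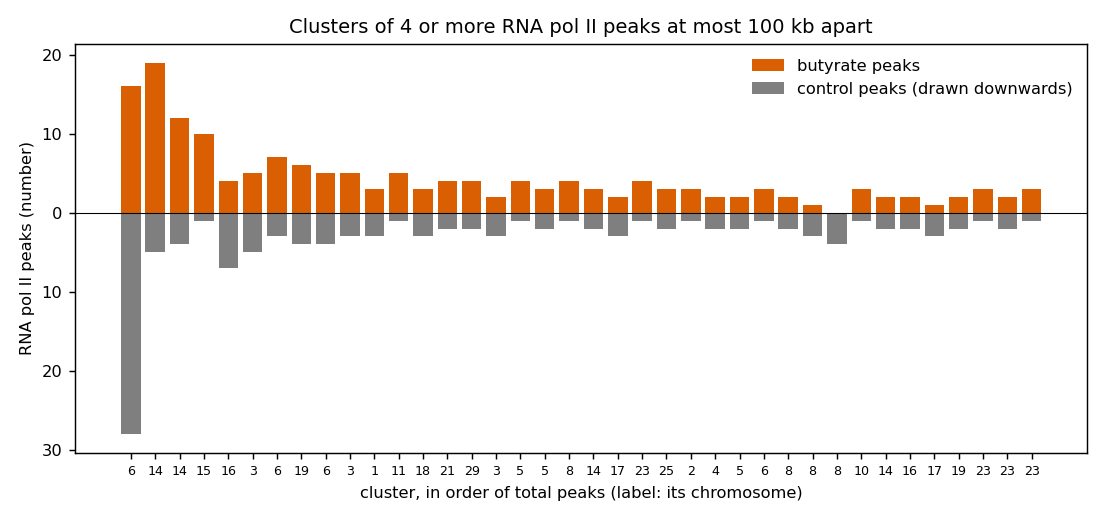
Butyrate peaks (upwards) and control peaks (downwards) in the 38 clusters of at least 4 RNA pol II peaks, in order of their total, each labelled by its chromosome. The first cluster has 28 control and 16 butyrate peaks, whereas the next 3 have more butyrate peaks.

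The widest shared peak of the butyrate list lay on chromosome 17 from 34219218 to 34220006 (789 bp, control peak 706 bp), over peaks of all 3 marks in both conditions. It was followed by chromosome 1, 91215670 to 91216367 (698 bp, control 468 bp), over H3K27ac and H3K9me3 in both conditions, and chromosome 14, 14773847 to 14774479 (633 bp, control 331 bp), over H3K9me3 in control and H3K9ac after butyrate. The widest butyrate only peaks lay on chromosome 14, 14583023 to 14583726 (704 bp) and 15118624 to 15119241 (618 bp), and on chromosome 6, 5797741 to 5798287 (547 bp). All of these 3 lay over H3K9me3 peaks of both conditions and within clusters. The peak of 704 bp also lay over H3K27ac, and that on chromosome 6 over H3K9ac, each called after butyrate and not in control. Of the widest control only peaks, chromosome 14, 72581579 to 72582264 (686 bp), was 0.258 kb from a butyrate peak, and chromosome 27, 24009593 to 24010042 (450 bp), was 0.396 kb from one. The remaining one, chromosome 19, 11030185 to 11030685 (501 bp), lay over H3K27ac in both conditions with the nearest butyrate peak 1152 kb away.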

How the data were processed

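ChIP-seq peak lists of rumen tissue were used, 1 library for each of 4 antibodies in control and after 24 h of butyrate. According to the methods of the study and the processing notes of the submitters, reads were aligned with BWA to UMD3.1, uniquely aligned reads with few mismatches were kept, and peaks were called per library with MACS2 at default settings against 1 input library. Trim Galore 0.4.1 is also named. The deposited lists hold 3 columns (chromosome, start, end) with no score, fold, p-value or read number, so a stricter threshold was set by width only. Read depth was not corrected for. The study's mapping summary lists fewer uniquely aligned reads for the butyrate than for the control RNA pol II library, and far fewer for the input than for either. The sources differ on single-end or paired-end reads. Both start and end were read as bases of the peak, counted from 1, and peaks of a list did not overlap each other.

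Peaks on chromosomes 1 to 29 were compared by overlap of at least 1 bp, distance, windows of 5 Mb and chains of peaks at most 100 kb apart. The span of a chromosome was the last peak end in the 8 lists. Shares have Wilson 95% intervals, differences of shares Newcombe intervals, and ratios of numbers exact binomial intervals. Python 3.11.15, numpy 2.4.6, scipy 1.17.1 and matplotlib 3.10.9 were used, and the overlap and distance functions were tested on simulated lists. Windows and clusters were named by size of excess or number of peaks, peaks by width (the 3 widest of a class), and chromosomes by ratio. The rule named 5 windows in each direction with ties by chromosome and position, and the other windows tied with the last of them were added after their values were seen. The members, lists and rules were chosen with earlier results of these data known. No gene was named, since the gene table at hand is of another assembly.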

Additional observations from a re-analysis of the deposited data

How the results depend on the processing

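The log2 ratio of RNA pol II peak numbers was above 0 under all 6 alternatives tried for it (0.74 to 0.96), and left its counting interval with peaks wider than 200 bp only (0.74). Butyrate peaks outnumbered control peaks on 28 of 29 chromosomes with that setting (equal on chromosome 6, 39 each) and without clusters (equal on chromosome 19, 32 each), and on 25 among the peaks listed in the first 50% of their file (equal on chromosomes 2, 9 and 19, and 15 control against 13 butyrate peaks on chromosome 17). The last alternative was added after seeing the data, and the sources used here do not explain the file order. Of 60 alternative values 28 left the counting interval of the reported value, and the causes were not tested.

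The share of butyrate peaks found in control was 10.6% with peaks wider than 200 bp, 5.66% without clusters, 11.3% with X included and 10.3% when peaks at most 1 kb apart counted; the share of control peaks found after butyrate was 11.2% without clusters, 19.9% with X, 18.6% at most 1 kb apart and 12.7% in the first 50% in file order. Butyrate only peaks under acetylation made up 34.2% with peaks wider than 200 bp, 35.7% with peaks of at least median width, 28.2% with X and 35.3% with marks of either condition. Under H3K9me3 the values were 10.7% (wider than 200 bp), 11.9% (median width), 4.92% (without clusters), 11.96% (with X), 9.66% (either condition) and 8.82% (first 50%). With no mark they were 56.7% (wider than 200 bp), 55.0% (median width) and 57.3% (either condition). Within 100 kb of a control peak lay 17.7% (median width), 12.6% (without clusters), 27.9% (with X) and 13.3% (first 50%). Windows with more butyrate peaks made up 69.1% at 10 Mb and 23.6% at 1 Mb.

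No paired analysis was possible because RNA pol II was profiled in 1 library per condition, and no library was left out for the same reason. The lists hold no read numbers, and differences in depth were not corrected for.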

Other observations

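The X chromosome, outside the comparison above, had 181 control and 247 butyrate RNA pol II peaks (log2 ratio 0.45, counting interval 0.17 to 0.73), which is below the 0.88 of the autosomes. With X included, 28.2% of butyrate only peaks lay under acetylation and 11.96% under H3K9me3.

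Shared peaks stood earlier in the lists than others. Their median place was 25.1% of the way through the butyrate list and 38.0% through the control list, against 49.4% for butyrate only and 47.9% for control only peaks. What the order of the lists stands for is not stated.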
